A study of Mus musculus with 9 samples.

Results

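The 47 genes described here carry out mitosis, and their mRNA was measured in 4T1 mammary tumors of mice on a low-fat diet (LFD), a high-fat diet (HFD), or the high-fat diet with the compound EC359 (HFD + EC359). They were listed by gene symbol, with earlier results of these data known, and all 47 were among the 22609 genes of the count tables. All 47 also passed the filter on low counts, which left 13366 genes for testing. With EC359, 37 of the 47 were lower than in the HFD group and the other 10 were not called. Among all tested genes 13.9% were lower and 12.7% higher. With HFD alone the same list was mixed, with 24 members above and 7 below their level on the LFD, where 26.0% and 25.8% of all tested genes were. Those counts became 13 and 11 once a trend on GC content and length was removed, against 19.8% and 23.2% of all genes.

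Mitosis is driven by the kinase CDK1, which is switched on by cyclins A and B and by CDC25 phosphatases and switched off when the anaphase-promoting complex marks the cyclins for destruction. Aurora and Polo-like kinases, kinesin motors, condensins, and kinetochore proteins build the spindle, compact the chromosomes, and attach one to the other, and the spindle checkpoint holds anaphase until every chromosome is attached. Most of these genes are transcribed in G2 and mitosis, so their mRNA in a tissue is widely read as a mark of how many cells are dividing. In a piece of whole tumor, fewer cells of a type and less RNA per cell cannot be told apart.

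The tumors were grown from 4T1, a single mouse mammary carcinoma cell line, placed in the mammary fat pad of mice of the BALB/c strain that had been on their diet for 6 weeks. Fat gave 10% of the calories of the LFD and 60% of those of the HFD. Mice of the LFD and HFD groups received the vehicle, hydroxy propyl cellulose at 0.3%, and mice of the HFD + EC359 group received EC359, a small-molecule inhibitor of the leukemia inhibitory factor receptor (LIFR), at 5 mg/kg on 5 days of each week. Each group had 3 libraries from 3 of the 9 tumors, no EC359 was given on the LFD, and the labels give neither the age of the mice nor a batch. The libraries held 5085357 to 9751201 counts, and the lowest count of any mitosis gene in any library was 38. Values are given as CPM (counts scaled to a common library size, with TMM factors) and as log2 fold changes with their standard error (SE). Levels of different genes are compared per kilobase of exon (CPM per kb).

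Markers of the carcinoma cells (the epithelial markers) and of other cells in the tumor pieces differed between the groups. The 7 fibroblast markers, of which 7 were higher with HFD and 4 lower and 1 higher with EC359, summed to 7752.9 to 9221.5 CPM in LFD tumors, 13499.1 to 14247.5 in HFD tumors, and 3975.7 to 4081.1 in HFD + EC359 tumors. The epithelial markers fell with HFD in all 4 tested members of 6 listed (Epcam, Cdh1, Krt8, and Krt18), from a sum of 1114.6 to 1136.2 CPM to one of 705.3 to 714.5, and the sum was 763.5 to 791.6 with EC359. Krt7 and Krt19, also epithelial, were near 0 and not tested, at mean levels of 0.386 to 0.667 CPM and 0.612 to 1.07 CPM. With EC359 3 of the 4 epithelial markers, 6 of 7 epidermal markers, and 6 of 6 macrophage markers were higher than with HFD, and 4 of 6 endothelial markers were lower. With HFD, 6 of 6 endothelial markers were higher than with LFD, 5 of 7 epidermal markers lower, and of 6 macrophage markers 3 higher and 1 lower. Calls on markers are to be read against all tested genes, of which 26.0% were higher and 25.8% lower with HFD. With EC359 12.7% of all tested genes were higher and 13.9% lower. Epidermal markers summed to 1088.7 to 1256.2, 165.6 to 180.0, and 507.7 to 518.6 CPM in the 3 groups. Endothelial markers summed to 201.5 to 210.8, 362.8 to 392.3, and 301.9 to 317.9 CPM. Macrophage markers summed to 1311.4 to 1343.5, 1247.7 to 1260.3, and 1579.2 to 1597.9 CPM. Erythroid genes, globins included, were higher with HFD in 4 of 4 tested and lower with EC359 in 4 of 4, with sums of 157.8 to 166.0, 254.5 to 280.3, and 181.6 to 191.5 CPM in LFD, HFD, and HFD + EC359 libraries. Neutrophil markers were higher with HFD in 2 of 4 and with EC359 in 4 of 4 (98.0 to 118.6, 124.3 to 135.1, and 158.6 to 164.2 CPM). Adipocyte markers were higher with HFD in 2 of 4 tested and called with EC359 in 0 (9.41 to 12.9, 26.2 to 29.1, and 25.3 to 29.0 CPM). T cell markers summed to 9.82 to 13.6, 8.12 to 9.33, and 12.8 to 14.9 CPM. Skeletal muscle genes summed to 297.3 to 354.3, 344.5 to 368.7, and 402.8 to 423.8 CPM, and B cell markers to at most 2.04 CPM in any library. The part of the carcinoma cells and of the other cells in the results on mitosis genes was not tested. LFD replicate 1 stood apart from the other LFD libraries, with a mean chi-square per gene of 2.99 and 2.46 against them, where the other pairs of one group had 1.35 to 1.55.

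The start regions of the mitosis genes share short sequences that the list did not use. Many genes of G2 and mitosis carry a cell cycle genes homology region (CHR, TTTGAA or TTCGAA) close to the transcription start, to which the DREAM and MuvB-MYB-FOXM1 complexes bind, and a CCAAT box upstream, to which NF-Y binds. RefSeq windows of 300 bases (build GRCm38.p6, 250 bases before to 50 after a start) were matched for 37 of the 47 members. Either CHR form, on either strand, was found in 30 of the 37 (81.1%) and in 21.7% of 27025 genes with such a window. Within 50 bases of the start it was found in 27 of the 37 (73.0%) and in 6.35% of all genes. CCAAT, on either strand, was in 29 (78.4%, against 41.1% of all genes), and a CHR near the start together with a CCAAT box in 24 (64.9%, against 2.7%). An E2F site (TTTCCCGC, TTTCGCGC, TTTGCCGC, or TTTGGCGC, either strand) was found in 5 of the 37 (13.5%, against 2.6%). No windows were at hand for Ccna2, Cdc25c, Foxm1, Pbk, Aurkb, Incenp, Kif20a, Smc4, Tpx2, and Dlgap5.

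Shown here are the start regions of Kif22 (chr7:127042371-127042670, minus strand), Ube2c (chr2:164769679-164769978, plus strand), Aurka (chr2:172370521-172370820, minus strand), Kif4 (chrX:100625815-100626114, plus strand), Bub1b (chr2:118597961-118598260, plus strand), and Ccnb2 (chr9:70421505-70421804, minus strand), which had the most negative log2 fold changes with EC359 among the members with a window. Each is written 5′ to 3′ on the strand of the gene, with CHR and CCAAT letters of either strand (TTCAAA and ATTGG on the other one) in capitals.
Kif22: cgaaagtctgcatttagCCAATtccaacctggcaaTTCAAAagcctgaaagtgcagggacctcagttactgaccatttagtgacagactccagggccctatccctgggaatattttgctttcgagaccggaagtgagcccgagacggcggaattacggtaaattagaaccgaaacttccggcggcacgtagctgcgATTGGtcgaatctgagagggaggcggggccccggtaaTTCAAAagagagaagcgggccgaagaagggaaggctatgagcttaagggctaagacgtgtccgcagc
Ube2c: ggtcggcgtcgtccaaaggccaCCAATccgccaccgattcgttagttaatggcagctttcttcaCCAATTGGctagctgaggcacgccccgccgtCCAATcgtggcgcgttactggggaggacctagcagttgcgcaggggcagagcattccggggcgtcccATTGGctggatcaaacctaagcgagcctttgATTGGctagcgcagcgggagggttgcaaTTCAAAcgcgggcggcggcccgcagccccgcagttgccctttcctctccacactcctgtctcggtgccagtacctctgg
Aurka: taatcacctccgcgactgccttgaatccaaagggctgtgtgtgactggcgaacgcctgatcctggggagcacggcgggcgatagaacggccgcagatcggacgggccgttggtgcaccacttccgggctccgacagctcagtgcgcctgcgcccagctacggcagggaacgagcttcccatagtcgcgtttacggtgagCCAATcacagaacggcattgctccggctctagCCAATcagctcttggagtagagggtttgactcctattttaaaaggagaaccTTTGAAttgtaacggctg
Kif4: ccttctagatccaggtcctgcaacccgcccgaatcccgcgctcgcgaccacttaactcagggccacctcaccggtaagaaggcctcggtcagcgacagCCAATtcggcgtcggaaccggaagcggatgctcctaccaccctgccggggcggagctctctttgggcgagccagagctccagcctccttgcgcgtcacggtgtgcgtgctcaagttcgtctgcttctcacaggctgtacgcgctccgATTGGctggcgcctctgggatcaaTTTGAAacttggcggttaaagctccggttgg
Bub1b: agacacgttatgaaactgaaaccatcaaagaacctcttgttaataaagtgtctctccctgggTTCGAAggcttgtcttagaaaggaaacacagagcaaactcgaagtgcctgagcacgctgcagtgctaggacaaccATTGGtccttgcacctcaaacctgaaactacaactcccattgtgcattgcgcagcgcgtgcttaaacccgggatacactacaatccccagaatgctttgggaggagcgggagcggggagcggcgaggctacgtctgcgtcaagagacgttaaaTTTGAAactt
Ccnb2: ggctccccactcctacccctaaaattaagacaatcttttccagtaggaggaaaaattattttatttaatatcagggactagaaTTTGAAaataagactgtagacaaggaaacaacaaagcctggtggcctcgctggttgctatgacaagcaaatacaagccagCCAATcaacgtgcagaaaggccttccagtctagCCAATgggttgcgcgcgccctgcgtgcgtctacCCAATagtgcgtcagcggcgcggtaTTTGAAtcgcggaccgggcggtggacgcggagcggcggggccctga
Counted from the first transcribed base as 1, the CHR nearest to the start lay at -17 to -12 in Kif22, -29 to -24 in Ube2c, 33 to 38 in Aurka, 20 to 25 in Kif4, 41 to 46 in Bub1b, and 5 to 10 in Ccnb2. Ccnb2 had 3 CCAAT boxes, at -87 to -83, -54 to -50, and -21 to -17, with equal spacing. Ube2c had 6, of which those at -186 to -182 and -183 to -179 overlap on opposite strands. A match of letters describes the sequence and says nothing of binding. Members with and without CHR letters in the window are set side by side under the comparison with EC359.

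With EC359, mitosis genes were lower in tumors on the HFD, and the change was small in each gene. In HFD + EC359 against HFD, 37 of the 47 members were lower and 0 higher in the quasi-likelihood test of edgeR, with calls made below a Benjamini-Hochberg adjusted p of 0.05 over all tested genes. Among all 13366 tested genes 13.9% were lower and 12.7% higher, in this test, and among the members 78.7% were lower and 0% higher. DESeq2 placed 34 members lower and 0 higher, and at an unadjusted p under 0.05 edgeR placed 42 lower and 0 higher. The median log2 fold change of the members was -0.29, against 0.01 over all tested genes, and the members ranged from -0.53 (Kif22) to 0.02 (Smc4), with 46 of 47 below 0. In 41 members the 3 HFD + EC359 libraries all lay below the 3 HFD libraries, a separation found for 20.7% of all tested genes. By the threshold of the study's methods, a change of more than 2-fold whose adjusted p is below 0.01, 0 members were called (0 also with DESeq2, and 0 past 2-fold at an unadjusted p under 0.05), against 1.38% of all genes called lower and 2.06% called higher. The members together took 4553.6 to 4586.3 CPM in the HFD libraries and 3788.4 to 3887.0 CPM in the HFD + EC359 libraries.

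**Figure D1:**
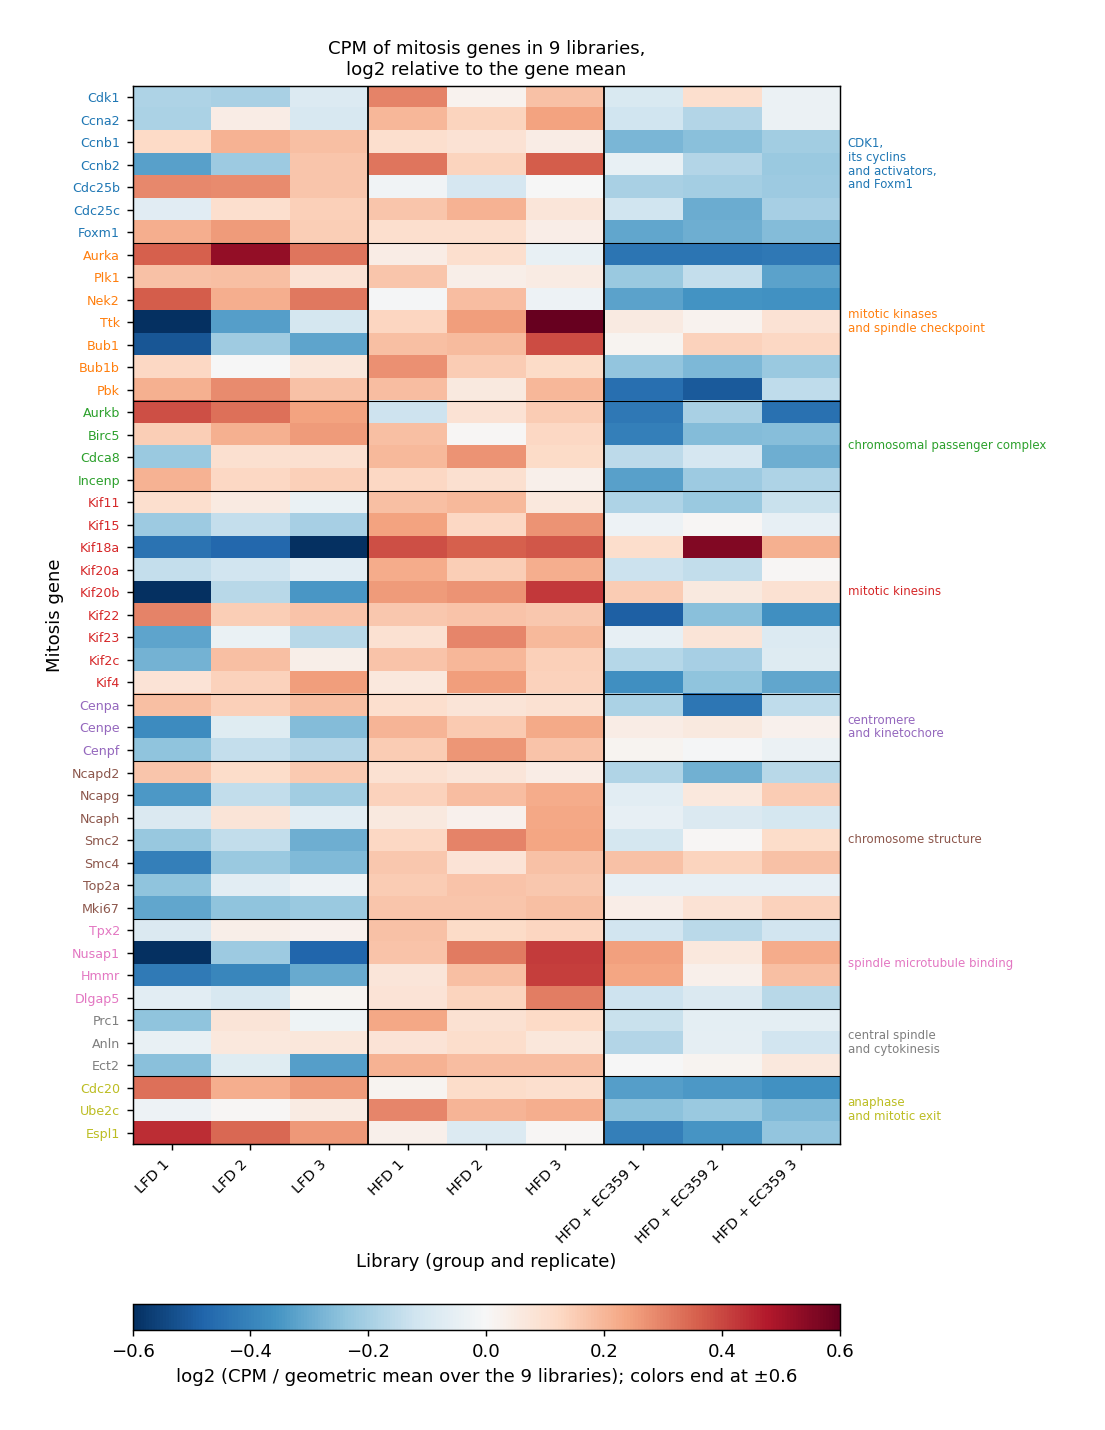
Log2 of the CPM of each mitosis gene (rows, grouped by role) in each of the 9 libraries (columns), relative to the geometric mean of that gene over the libraries, with red for higher and blue for lower values and colors ending at ±0.6. The HFD + EC359 columns are blue for most genes of the first 3 groups, and the LFD columns are blue for Ttk, Bub1, Kif18a, Kif20b, Nusap1, and Hmmr and red for Aurka, Cdc20, and Espl1.

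HFD tumors had higher levels than LFD tumors in 24 of the 47 members and lower levels in 7 (edgeR, adjusted p under 0.05), and 16 were not called (31 called in all). Over all tested genes 26.0% were higher and 25.8% lower (51.8% called), so the share of members called lower was under the background and the share called higher above it. The median log2 fold change was 0.19 (0.01 over all genes), with a range from -0.37 (Aurka) to 1.01 (Kif18a). The groups did not overlap in 25 members with HFD higher and 10 with HFD lower, against 28.6% of all genes in either direction. Kif18a alone changed more than 2-fold with an adjusted p below 0.01, where 3.03% of all genes were called higher and 2.68% lower. The summed CPM of the members was 3999.6 to 4216.1 in the LFD libraries, below each HFD library.

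The counts of calls with HFD changed once the base composition of the genes was taken into account. Genes poor in G and C were counted less in the LFD libraries than in the others. To measure this, the mean log2 CPM of the tested genes up to 45.8% GC, less that of the genes from 55.4% GC, was centered on its mean over the 9 libraries. It came to -0.54, -0.32, and -0.36 in LFD libraries, to 0.10, 0.13, and 0.16 in HFD libraries, and to 0.27, 0.25, and 0.30 in HFD + EC359 libraries. The exons of the mitosis genes had a median GC content of 47.0% (38.3% to 56.1%), against 50.8% for all tested genes. Of the 19 members with a GC content under 45%, 15 were higher with HFD and the other 4 not called, while of the 15 members with 50% or more, 1 was higher and 7 were lower. All tested genes showed the same tilt, with 53.1% higher and 6.15% lower under 45% GC and 12.9% higher and 39.0% lower from 50% GC. After the trend of each library on GC content and length was removed, 13 members were higher and 11 lower with HFD, against 19.8% and 23.2% of all genes, and the median was 0.05. Of the 31 calls, 14 were lost in that fit. Across the 47 members Pearson's r between the log2 fold change and GC content was -0.75 as counted and -0.24 with the trend removed, where the points share libraries and genes differ in length. Whether the tilt arose in the libraries or in the tumors was not tested.

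The lower levels with EC359 kept their direction in that fit. With the trend removed, 43 members were lower than in the HFD group (14.8% of all genes), all 47 log2 fold changes were below 0, and the median was -0.32. As counted, 10 of the 19 members under 45% GC were lower, 12 of 13 from 45% to under 50%, and 15 of 15 from 50%, against 6.08%, 9.36%, and 19.0% of all genes in these classes. Over the 47 members r with GC content was -0.59 as counted and -0.29 with the trend removed. Median log2 fold changes with EC359 were -0.26 in the 30 members with CHR letters in the start region (23 lower) and -0.19 in the 7 without (5 lower).

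**Figure D2:**
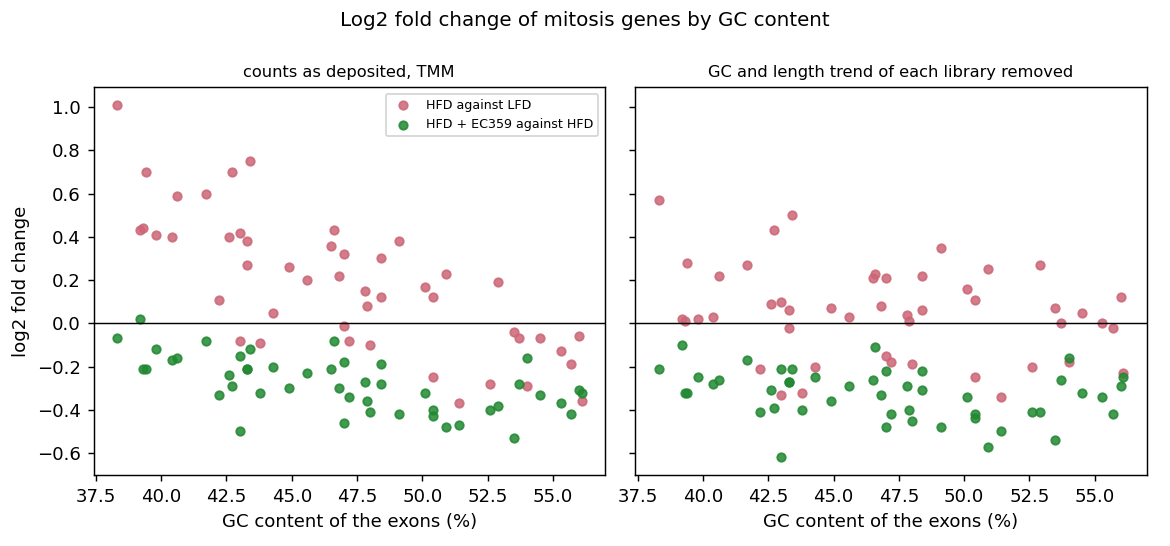
Log2 fold change of the 47 mitosis genes against the GC content of their exons in percent, for HFD against LFD (red) and HFD + EC359 against HFD (green), as counted (left) and after each library's trend on GC and length was taken out (right). The red points slope down on the left (r = -0.75) and lie around 0 on the right (median 0.05), while nearly all green points on the left and all on the right are below 0.

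In HFD + EC359 against LFD, members were called higher at about the share of all genes and lower at a greater share. In this comparison 14 members (29.8%) were higher and 22 (46.8%) lower (edgeR, adjusted p under 0.05), against 29.2% and 29.1% of all genes. In all, 36 members (76.6%) were called, against 58.3% of all genes. The median was -0.12, with a range from -0.85 (Aurka) to 0.94 (Kif18a). The groups did not overlap in 14 members (29.8%) with HFD + EC359 higher and 22 (46.8%) with it lower, against 31.8% and 31.1% of all genes. More than 2-fold with an adjusted p below 0.01 were 0 members in either direction (0 also with DESeq2, and 0 past 2-fold at an unadjusted p under 0.05), against 3.66% higher and 1.43% lower among all genes. Of the 19 members under 45% GC 13 were higher, where 61.5% of all tested genes in that class were, and of the 15 from 50% GC 13 were lower, where 44.0% of all genes were. With the trend removed, 2 members (Mki67 and Nusap1, 4.26%) were higher and 31 (66.0%) lower, against 21.8% and 27.5% of all genes. The median was then -0.26. The 3 comparisons share their libraries, so their values are set side by side and are not independent. With the calls given for HFD (against LFD), then EC359 (against HFD), then HFD + EC359 (against LFD), 8 members were higher, lower, and not called (Cdk1, Ccna2, Ccnb2, Kif20a, Kif23, Top2a, Dlgap5, and Prc1), 4 higher, lower, and higher (Kif15, Cenpe, Cenpf, and Smc2), and 2 higher, lower, and lower (Tpx2 and Ube2c). Another 10 were higher, not called, and higher (Ttk, Bub1, Kif18a, Kif20b, Ncapg, Smc4, Mki67, Nusap1, Hmmr, and Ect2). Called lower in all 3 were 7 (Cdc25b, Foxm1, Aurka, Nek2, Aurkb, Cdc20, and Espl1), and 13 were not called with HFD and lower in both others (Ccnb1, Cdc25c, Plk1, Bub1b, Pbk, Birc5, Incenp, Kif11, Kif22, Kif4, Cenpa, Ncapd2, and Anln). The last 3, Cdca8, Kif2c, and Ncaph, were called with EC359 against HFD alone. Some higher calls in HFD + EC359 against LFD became lower calls with the GC trend removed (edgeR). These were Kif15 (-0.22, adjusted p = 0.00537), Cenpf (-0.22, adjusted p = 7.92e-05), Smc2 (-0.31, adjusted p = 6.41e-05), Ncapg (-0.23, adjusted p = 0.018), and Ect2 (-0.25, adjusted p = 0.0105). The higher call of Kif15 (adjusted p = 0.0416, edgeR) was also lost with DESeq2, RLE factors, and thinned counts, among other settings.

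**Figure D3:**
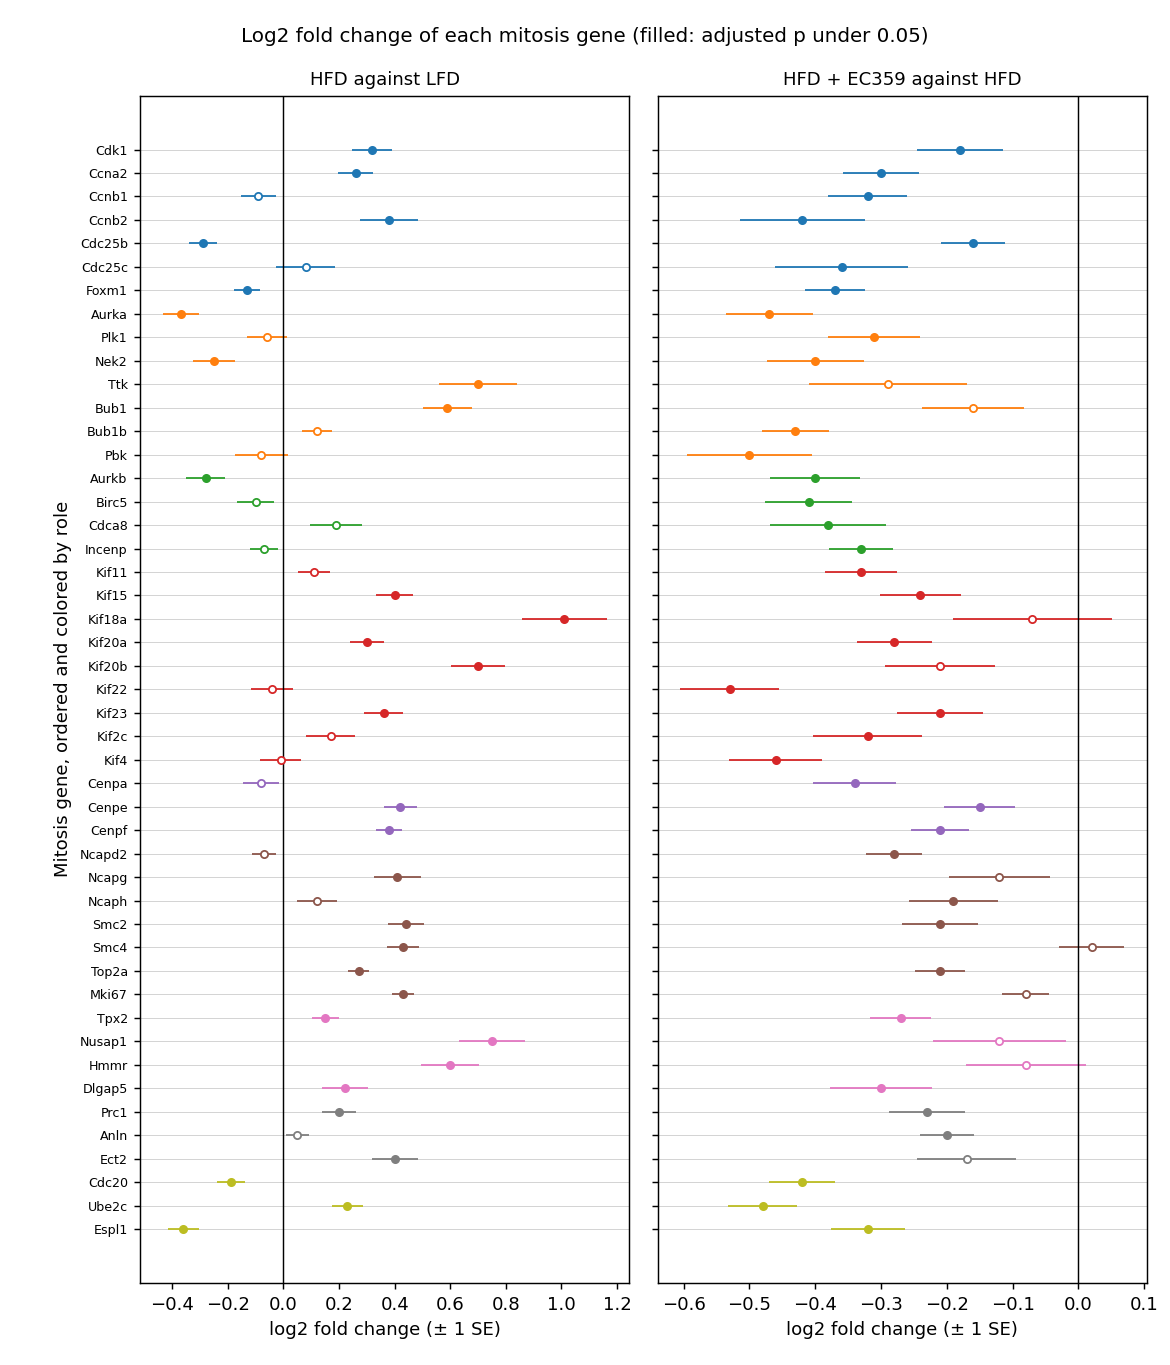
Log2 fold change of each mitosis gene (rows, ordered and colored by role) with 1 SE on either side, for HFD against LFD (left) and HFD + EC359 against HFD (right), with filled points for an adjusted p under 0.05. Filled points lie on both sides of 0 on the left (24 and 7) and below 0 on the right (37).

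CDK1, its cyclins, its CDC25 activators, and the transcription factor gene Foxm1 were all lower with EC359, 7 of 7, with a median log2 fold change of -0.32, while 3 were higher and 2 lower (Cdc25b and Foxm1) with HFD. Cdk1 (mm9 chromosome 10, 68799383 to 68815660, minus strand), the kinase itself, was at 58.5, 58.2, and 62.9 CPM in the LFD libraries, 81.7, 67.6, and 75.1 in the HFD libraries, and 62.5, 71.3, and 64.9 in the HFD + EC359 libraries. All HFD libraries lay above the LFD libraries, and the HFD and HFD + EC359 libraries overlapped. Its log2 fold change was 0.32 with HFD (SE 0.072, adjusted p = 0.000358 from edgeR's quasi-likelihood test) and -0.18 with EC359 (SE 0.066, adjusted p = 0.0445, same test). The call with EC359 was lost without HFD replicate 1 (-0.107), without HFD replicate 3 (-0.178), without HFD + EC359 replicate 1 (-0.138), and without HFD + EC359 replicate 3 (-0.165). It was also lost with DESeq2, library totals, a filter of at least 10 counts in every library, and thinned counts.

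Cyclin B1, encoded by Ccnb1 (chromosome 13, 101548694 to 101556441, minus strand), partners CDK1 at mitotic entry. Its level was 68.1, 72.5, and 71.0 CPM in LFD tumors, 67.2, 66.5, and 64.7 in HFD tumors, and 51.8, 52.7, and 54.3 in HFD + EC359 tumors. The HFD + EC359 libraries lay below all others, with a log2 fold change of -0.32 against HFD (SE 0.06, adjusted p = 0.000108, edgeR). With HFD the change of -0.09 was not called as counted (adjusted p = 0.202, edgeR) and was called with the GC trend removed (-0.32, adjusted p = 4.23e-05). Ccnb2 (chromosome 9, 70255496 to 70269361, minus strand), the gene of cyclin B2, had 26.8, 28.9, and 37.7 CPM with LFD, 41.9, 36.8, and 43.2 with HFD, and 32.6, 29.7, and 28.8 with EC359. Its level was raised with HFD by 0.38 (SE 0.103, adjusted p = 0.00245, edgeR), though HFD replicate 2 lay below LFD replicate 3, and it was lower with EC359 by a log2 fold change of -0.42 (SE 0.095, adjusted p = 0.000957), with no overlap.

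Ccna2 (chromosome 3, 36463787 to 36470918, minus strand) encodes cyclin A2, which acts in S phase and at mitotic entry. It was at 69.6, 81.8, and 74.2 CPM in the LFD libraries, 91.2, 87.1, and 93.8 in the HFD libraries, and 73.1, 70.4, and 77.6 in the HFD + EC359 libraries. The HFD libraries were above all others. The log2 fold change was 0.26 with HFD (adjusted p = 0.000615, edgeR), 0.07 and not called with the GC trend removed, and -0.30 with EC359 (SE 0.058, adjusted p = 0.000168, edgeR). Cdc25b (chromosome 2, 131012684 to 131024247, plus strand), a phosphatase that activates CDK1, had the highest level per length of the group, with 41.5, 33.9, and 30.3 CPM per kb in the 3 groups. Its libraries held 134.4, 134.1, and 123.5 CPM with LFD, 108.4, 102.6, and 109.8 with HFD, and 96.2, 95.5, and 94.7 with EC359, without overlap between any groups. Both steps were decreases, by log2 fold changes of -0.29 (adjusted p = 1.35e-05, edgeR) and -0.16 (adjusted p = 0.0117), but the latter call was lost without HFD replicate 1 (-0.155) or HFD replicate 3 (-0.149). Foxm1, which encodes the transcription factor that binds MuvB-MYB at these promoters, changed by -0.13 with HFD (adjusted p = 0.0248, edgeR) and -0.37 with EC359 (adjusted p = 1.56e-07). The former call was lost with the GC trend removed (0.00, adjusted p = 0.974), with DESeq2 (adjusted p = 0.0629), library totals (adjusted p = 0.137), no filter, and thinned counts, and without LFD replicate 2 (-0.106) or HFD replicate 3 (-0.11). Foxm1 overlaps 4933413G19Rik on its strand. Cdc25c was lower with EC359 (-0.36) and not called with HFD (0.08).

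**Figure D4:**
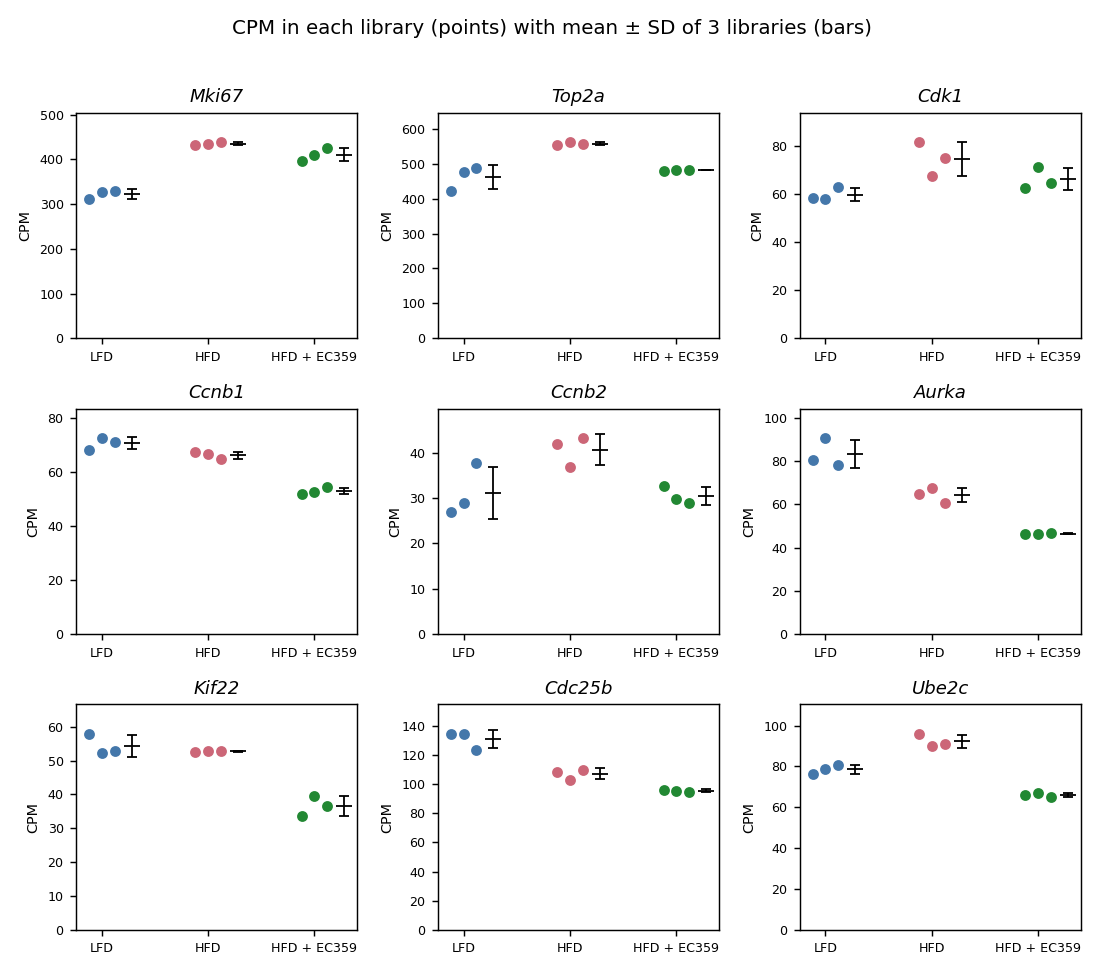
CPM of 9 mitosis genes in each library (points) with the mean ± SD of the 3 libraries of a group (bars), on axes that start at 0. Aurka and Cdc25b step down from LFD to HFD to HFD + EC359, Kif22 and Ccnb1 are lowest in the HFD + EC359 group, and Ube2c, Ccnb2, Top2a, and Cdk1 have their highest mean in the HFD group.

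Of the 7 mitotic kinase and checkpoint genes, 2 were higher, 2 lower, and 3 not called with HFD, and 5 were lower with EC359 (7 with the GC trend removed). With HFD, 26.0% of all tested genes were higher and 25.8% lower, near the shares in this group. With EC359 13.9% of all tested genes were lower (14.8% with the trend removed). Aurka (chromosome 2, 172181696 to 172196006, minus strand), whose kinase matures the spindle poles, was at 80.6, 90.6, and 78.3 CPM in the LFD libraries, 64.8, 67.3, and 60.8 in the HFD libraries, and 46.3, 46.3, and 46.6 in the HFD + EC359 libraries. No groups overlapped, and the SD of the last was 0.173 CPM. The log2 fold changes were -0.37 with HFD (SE 0.065, adjusted p = 1.4e-05, edgeR), -0.47 with EC359 (SE 0.066, adjusted p = 1.29e-06), and -0.85 between HFD + EC359 and LFD (adjusted p = 1.45e-12). Pbk (chromosome 14, 66424748 to 66436659, plus strand), a mitotic kinase gene, had 34.4, 36.1, and 33.5 CPM with LFD, 33.7, 30.9, and 34.1 with HFD, and 21.7, 20.9, and 26.7 with EC359. Here LFD and HFD overlapped, with no call as counted (-0.08, adjusted p = 0.52, edgeR) and one in the lower direction with the GC trend removed (-0.33, adjusted p = 0.00428). The HFD + EC359 libraries lay below both, by a log2 fold change of -0.50 against HFD (SE 0.095, adjusted p = 0.000119, edgeR). Of the other kinases, Plk1, which acts at entry, spindle, and cytokinesis, changed by -0.06 (adjusted p = 0.497) and -0.31 (adjusted p = 0.000878) in these comparisons, and Nek2, a centrosome kinase, fell in both (-0.25 and -0.40). The checkpoint kinases Ttk and Bub1 were higher with HFD (0.70 and 0.59, and 0.43 and 0.22 with the GC trend removed, called in either fit) and were not called with EC359 as counted (-0.29, adjusted p = 0.0679, and -0.16, adjusted p = 0.131, edgeR). Both were called lower with EC359 once the GC trend was removed (-0.39, adjusted p = 0.00911, and -0.26, adjusted p = 0.00493). Ttk was also called lower with no filter, in the 6 libraries alone, with the replicate block, and without LFD replicate 1 or HFD replicate 1. Bub1b, whose product blocks the anaphase-promoting complex, was lower with EC359 (-0.43, adjusted p = 6.29e-08) and not called with HFD (0.12, adjusted p = 0.0542, edgeR). With HFD it was called higher under library totals (adjusted p = 0.00925) and both other filters, and without LFD replicate 1 or HFD replicate 3. It was not called with the GC trend removed (0.11, adjusted p = 0.0875).

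The chromosomal passenger complex, which corrects faulty attachments and then guides cytokinesis, was lower with EC359 in all 4 of its genes, between -0.33 and -0.41. Aurkb (chromosome 11, 68859145 to 68865164, plus strand), its kinase, was at 103.5, 99.4, and 93.6 CPM in LFD tumors, 72.6, 84.1, and 88.0 in HFD tumors, and 58.7, 69.1, and 58.0 in HFD + EC359 tumors. The 3 groups formed steps with no overlap, and the log2 fold changes were -0.28 (SE 0.069, adjusted p = 0.00107, edgeR) and -0.40 (SE 0.068, adjusted p = 3.44e-05). Birc5 (chromosome 11, 117710551 to 117717057, plus strand), the gene of survivin, had 67.3, 70.3, and 72.4 CPM with LFD, 68.7, 61.0, and 66.2 with HFD, and 45.6, 50.6, and 50.9 with EC359. LFD and HFD overlapped, with no call as counted (-0.10, adjusted p = 0.209, edgeR) and one with the GC trend removed (-0.19, adjusted p = 0.0182), and the decrease with EC359 was -0.41 (SE 0.066, adjusted p = 1.08e-05, edgeR). Incenp, the scaffold, and Cdca8, which encodes borealin, changed by -0.33 and -0.38 with EC359 and were not called with HFD (-0.07 and 0.19). Cdca8 was called with the GC trend removed (0.27, adjusted p = 0.0162).

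Of the 9 mitotic kinesins, motors that move along microtubules, 7 were lower with EC359 and 5 higher with HFD, against 13.9% and 26.0% of all tested genes. Kif22 (chromosome 7, 134171245 to 134185934, minus strand), which pushes chromosome arms outward, had the most negative fold change of the 47 genes with EC359 and the highest level per length of the kinesins. It was at 57.9, 52.1, and 52.9 CPM in the LFD libraries, 52.6, 52.9, and 52.7 in the HFD libraries, and 33.5, 39.5, and 36.5 in the HFD + EC359 libraries. LFD and HFD overlapped closely (-0.04, adjusted p = 0.703, edgeR), and EC359 was below both, with a log2 fold change of -0.53 against HFD (SE 0.075, adjusted p = 1.38e-06), a mean 0.69 times that of the HFD group. Kif4, a motor of chromosome arms and of the central spindle, likewise changed with EC359 (-0.46) and not with HFD (-0.01, adjusted p = 0.919). Kif18a (chromosome 2, 109120895 to 109181903, plus strand), which dampens chromosome movements, had the lowest level per length and the lowest GC content (38.3%) of all members. It was at 10.4, 10.2, and 6.7 CPM with LFD, 18.5, 18.1, and 18.3 with HFD, and 15.2, 20.8, and 16.4 with EC359, so that both HFD groups lay above LFD and overlapped each other. The log2 fold change with HFD was 1.01 (SE 0.153, adjusted p = 1.54e-06, edgeR) as counted and 0.57 (adjusted p = 0.00289) with the GC trend removed. Kif20b, also poor in GC, rose with HFD (0.70) and was not called with EC359 as counted (-0.21, adjusted p = 0.0556, edgeR). It was called lower with EC359 with the GC trend removed (-0.32, adjusted p = 0.00127), with RLE factors (adjusted p = 0.0491), and in the 6 libraries alone (adjusted p = 0.00882), among other settings. With HFD, Kif11 was not called as counted (0.11, adjusted p = 0.107) and was called lower with the GC trend removed (-0.21, adjusted p = 0.00391). Kif11, which slides spindle poles apart, Kif2c, which takes microtubules apart at centromeres, and Kif15, Kif20a, and Kif23 changed by -0.33, -0.32, -0.24, -0.28, and -0.21 with EC359, each called, though Kif23 lost its call when HFD replicate 2 (-0.159) or, of the HFD + EC359 libraries, replicate 1 (-0.197) or 3 (-0.181) was left out.

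The 3 centromere and kinetochore genes were lower with EC359. Cenpa (chromosome 5, 30969275 to 30977199, plus strand) encodes the histone H3 variant that marks centromeres. Its CPM was 78.8, 76.8, and 78.6 in LFD tumors, 74.4, 73.2, and 74.1 in HFD tumors, and 60.9, 51.5, and 62.4 in HFD + EC359 tumors. The HFD libraries lay just below the LFD libraries without a call (-0.08, adjusted p = 0.332, edgeR) but with one once the GC trend was removed (-0.18, adjusted p = 0.0226), and the HFD + EC359 libraries lay well below both (-0.34 against HFD, SE 0.063, adjusted p = 9.34e-05). Cenpe, a kinetochore motor, and Cenpf rose with HFD by 0.42 and 0.38, were not called there with the GC trend removed (0.10 and 0.06), and changed by -0.15 and -0.21 with EC359. For Cenpe the call with EC359 was lost without any one library of either group (-0.142 to -0.161) except HFD replicate 2. It was also lost with DESeq2 and library totals.

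Of the 7 genes of chromosome structure, 5 were higher with HFD and 4 lower with EC359 as counted (1 and 6 with the GC trend removed). The shares of all tested genes were 26.0% and 13.9% (19.8% and 14.8% with the trend removed). Top2a (chromosome 11, 98854261 to 98885503, minus strand), the topoisomerase that untangles sister chromatids, had the highest level per length of the 47 genes, 88.5, 106.7, and 92.2 CPM per kb in the 3 groups. Its CPM was 421.7, 476.1, and 487.0 with LFD, 552.8, 561.2, and 556.2 with HFD, and 480.4, 481.5, and 481.3 with EC359, so that the HFD libraries were above all others. The log2 fold change of 0.27 with HFD (SE 0.039, adjusted p = 9.2e-07, edgeR) became -0.02 (adjusted p = 0.729) with the GC trend removed, and that of -0.21 with EC359 (SE 0.038, adjusted p = 7.32e-05) became -0.27 (adjusted p = 1.52e-08). Mki67 (chromosome 7, 142881471 to 142908062, minus strand), the gene of the Ki-67 protein that coats mitotic chromosomes, was at 311.2, 326.8, and 330.6 CPM in the LFD libraries, 433.4, 433.8, and 438.4 in the HFD libraries, and 397.0, 410.2, and 425.2 in the HFD + EC359 libraries. The groups did not overlap. Its rise with HFD was 0.43 (SE 0.038, adjusted p = 2.96e-11, edgeR), and it kept a call with the GC trend removed (0.23, adjusted p = 7.61e-07). With EC359 it changed by -0.08 (SE 0.036, adjusted p = 0.0877, edgeR), a change that was called with the trend removed (-0.11, adjusted p = 0.0138) and without LFD replicate 1. It was also called in the 6 libraries of the comparison alone (adjusted p = 0.014, edgeR) and with thinned counts (adjusted p = 0.0493).

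Condensin I is built from Smc2 and Smc4, shared with condensin II, and from Ncapd2, Ncapg, and Ncaph. Ncapd2 (chromosome 6, 125118025 to 125141604, minus strand) was at 198.2, 190.7, and 197.2 CPM with LFD, 188.3, 185.9, and 182.2 with HFD, and 155.9, 145.0, and 157.8 with EC359. It was lower with EC359 than in all other libraries (-0.28 against HFD, SE 0.043, adjusted p = 6.52e-06, edgeR) and not called with HFD (-0.07). The GC-poor subunits Smc2, Smc4, and Ncapg rose with HFD by 0.44, 0.43, and 0.41, changes of 0.01, 0.02, and 0.02 with the GC trend removed and then not called. With EC359 neither Smc4 (0.02, SE 0.05, adjusted p = 0.801, edgeR) nor Ncapg (-0.12, adjusted p = 0.252) was called, though Ncapg was with the GC trend removed (-0.25, adjusted p = 0.00942), while Smc2 and Ncaph were called lower (-0.21 and -0.19). The call of Smc2 was lost without HFD replicate 2 (-0.169) or HFD + EC359 replicate 1 (-0.158), and that of Ncaph without HFD replicate 3 (-0.129) or any one HFD + EC359 library (-0.181 to -0.205). Ncaph also lost its call with DESeq2, library totals, and thinned counts.

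All 4 genes of spindle microtubule binding were higher with HFD as counted (2 with the GC trend removed), and 2 were lower with EC359. Of all tested genes 26.0% were higher with HFD (19.8% with the trend removed) and 13.9% lower with EC359. Tpx2 (chromosome 2, 152673700 to 152721057, plus strand), which nucleates microtubules near chromosomes and activates Aurora A, was at 113.1, 123.1, and 122.3 CPM in LFD tumors, 135.9, 130.3, and 131.4 in HFD tumors, and 111.2, 107.4, and 110.9 in HFD + EC359 tumors. HFD was above all other libraries. The rise of 0.15 with HFD (adjusted p = 0.0123, edgeR) was not called with the GC trend removed (0.04, adjusted p = 0.555) or without LFD replicate 1 (0.111) or HFD replicate 1 (0.129), and the decrease with EC359 was -0.27 (SE 0.046, adjusted p = 2.88e-05). Dlgap5 (chromosome 14, 48007454 to 48038082, minus strand), which stabilizes kinetochore fibers, had 38.3, 37.5, and 40.5 CPM with LFD, 42.4, 44.0, and 49.6 with HFD, and 36.8, 37.7, and 35.7 with EC359. Its change with HFD (0.22, adjusted p = 0.0243, edgeR) was not called with the GC trend removed (0.08, adjusted p = 0.493), with DESeq2 (adjusted p = 0.062), with thinned counts (adjusted p = 0.0886), or without LFD replicate 2 (0.193) or HFD replicate 3 (0.153). Its change with EC359 was -0.30 (SE 0.078, adjusted p = 0.00341), a call lost with thinned counts (adjusted p = 0.0897, edgeR). Nusap1 and Hmmr rose with HFD (0.75 and 0.60, and 0.50 and 0.27 with the GC trend removed, called in either fit) and were not called with EC359 (-0.12, adjusted p = 0.403, and -0.08, adjusted p = 0.597, edgeR).

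In cytokinesis, 2 of 3 genes were higher with HFD and 2 of 3 lower with EC359 as counted. With the GC trend removed, 0 were higher and 1 lower with HFD and 3 lower with EC359. Anln (chromosome 9, 22135658 to 22193650, minus strand), the gene of the ring scaffold anillin, was at 240.2, 258.7, and 259.4 CPM with LFD, 262.2, 266.0, and 259.6 with HFD, and 218.8, 238.3, and 228.5 with EC359. LFD and HFD were barely apart (0.05, adjusted p = 0.301, edgeR), with a call in the lower direction once the GC trend was removed (-0.20, adjusted p = 7.62e-05), and EC359 lay below both (-0.20 against HFD, SE 0.041, adjusted p = 0.000328). Prc1 (chromosome 7, 87439351 to 87461145, plus strand), which bundles the central spindle, had 77.1, 96.2, and 89.7 CPM in the LFD libraries, 107.1, 97.1, and 99.2 in the HFD libraries, and 83.1, 87.5, and 87.5 in the HFD + EC359 libraries. It was higher with HFD by 0.20 (adjusted p = 0.00845, edgeR), a call lost with the GC trend removed (0.03, adjusted p = 0.729) and without LFD replicate 1 (0.12) or HFD replicate 1 (0.155), and changed by -0.23 with EC359 (SE 0.058, adjusted p = 0.00259). Ect2, which activates the furrow, rose with HFD (0.40, and 0.03 and not called with the GC trend removed) and was not called with EC359 as counted (-0.17, adjusted p = 0.102, edgeR), though it was with the trend removed (-0.28, adjusted p = 0.00369).

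The 3 genes of anaphase and mitotic exit were lower with EC359. Ube2c (chromosome 2, 164595429 to 164598402, plus strand), the ubiquitin-conjugating enzyme of the anaphase-promoting complex, was at 76.5, 78.6, and 80.9 CPM in LFD tumors, 96.0, 90.0, and 91.0 in HFD tumors, and 65.9, 67.1, and 65.1 in HFD + EC359 tumors. HFD was highest and HFD + EC359 lowest, with no overlap. The log2 fold changes were 0.23 with HFD (SE 0.056, adjusted p = 0.000864, edgeR), 0.25 with the GC trend removed, and -0.48 with EC359 (SE 0.053, adjusted p = 1.02e-08). Cdc20, the activator of that complex, and Espl1, the gene of separase, which cuts cohesin at anaphase, fell with HFD by 0.19 and 0.36 on the log2 scale and with EC359 by 0.42 and 0.32, and the change of Cdc20 with HFD was -0.02 and not called with the GC trend removed.

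Genes of the same pathway outside the list were also counted, to be read against all tested genes, of which 26.0% were higher and 25.8% lower with HFD and 12.7% higher and 13.9% lower with EC359 (19.8%, 23.2%, 10.9%, and 14.8% with the GC trend removed). Of 38 other spindle and kinetochore genes, 21 were lower with EC359 and the other 17 not called, and 14 were higher and 6 lower with HFD (5 and 9 with the GC trend removed, and 29 lower with EC359). The most abundant by CPM were Numa1, which anchors spindle poles (544.2 ± 9.47 CPM with HFD and 504.0 ± 2.49 with EC359, SD, n = 3, log2 fold change -0.11, adjusted p = 0.0152, edgeR, and -0.05, adjusted p = 0.214, with the GC trend removed), Hjurp, the chaperone of Cenpa, which overlaps 2 other genes on its strand (-0.18, adjusted p = 0.000256), and Ckap5, a microtubule polymerase (-0.06, adjusted p = 0.41, and -0.11, adjusted p = 0.0493, with the GC trend removed). Among 12 brakes and switches of CDK1, 4 were higher and 4 lower with HFD and 4 lower with EC359, counts that became 1, 5, and 4 with the GC trend removed. With EC359 Ppp1cc changed by -0.14 (adjusted p = 0.0185, edgeR), a call lost with DESeq2, library totals, and thinned counts and without HFD replicate 2 or HFD + EC359 replicate 3. Its fellow phosphatase genes Ppp1ca (0.01) and Ppp2ca (-0.04) were not called. Of 11 genes of the DREAM and MuvB-MYB complexes, 2 were higher and 2 lower with HFD and 2 lower with EC359, counts that became 0, 3, and 3 with the trend removed. E2f4 was lower in both as counted (-0.16 and -0.15). Its change with HFD was 0.03 (adjusted p = 0.686) with the trend removed and was not called without LFD replicate 1 or HFD replicate 1. Its call with EC359 was lost with DESeq2, library totals, and thinned counts and without HFD replicate 3 or replicate 2 or 3 of HFD + EC359. Rbbp4 rose with HFD (0.19, and -0.06 and not called with the GC trend removed) and was not called with EC359 (0.01), and Tfdp1 was called in neither as counted (-0.05 and -0.11), and with EC359 in the 6 libraries alone, without LFD replicate 1, and with the trend removed (-0.15, adjusted p = 0.00962).

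Of 15 genes of the anaphase-promoting complex and its partners, 4 were higher and 5 lower with HFD and 3 lower with EC359, counts that became 2, 3, and 4 with the GC trend removed. Its subunits Anapc1 and Anapc2 were called with HFD (0.22 and -0.46), of which Anapc2 alone was with the trend removed (0.04, adjusted p = 0.413, and -0.32), and were not called with EC359 (0.03 and -0.05), whereas Anapc5 was lower with EC359 (-0.14, adjusted p = 0.00808, edgeR), though not without HFD replicate 3. The 15 genes of cohesin and condensin II, which hold and shape chromatids, were mostly higher with HFD (9 higher and 1 lower, and 1 and 5 with the GC trend removed). With EC359, 4 of them were higher (Pds5b, Nipbl, Esco1, and Esco2) and 2 lower (Ncapg2 and Ncaph2), and with the trend removed 3 were lower (Rad21, Ncapg2, and Ncaph2) and none of the 4 higher calls held. Of 15 G1 cyclins, CDKs, and inhibitors, 4 were higher and 8 lower with HFD and 1 higher and 5 lower with EC359 (2, 5, 0, and 5 with the trend removed). Ccnd1, the gene of cyclin D1, which drives G1, went from 1087.5 ± 10.8 CPM with LFD to 958.2 ± 17.2 with HFD and 860.0 ± 3.61 with EC359 (SD, n = 3), log2 fold changes of -0.18 (adjusted p = 5.1e-06, edgeR) and -0.16 (adjusted p = 0.000124). Its partner Cdk4 was lower in both comparisons (-0.22 and -0.20, the former -0.08 and not called with the trend removed), and Cdk6 was lower with HFD (-0.55) and not called with EC359 (-0.03, adjusted p = 0.721).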

How the data were processed

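Expected counts of read pairs per gene were deposited by the authors for each of 9 libraries (stranded mRNA, paired-end), without normalization. Per the file headers, featureCounts 1.5.0 counted pairs in reverse-stranded mode with fractions for several genes or alignments (minimum mapping quality 2). The submitters' processing notes name bcl2fastq, HISAT2 2.1.0, featureCounts, and mm9, whereas the methods name TopHat2 and HTSeq. Of the genes in each library 1.19% to 3.55% had a fractional value, and all were rounded. A limit of 3 counts is 0.308 to 0.59 CPM, for counting error only.

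In R 4.3.3, edgeR 4.0.16 (filterByExpr, TMM, 1 quasi-likelihood model of the 3 groups, Benjamini-Hochberg over 13366 genes) gave the 3 comparisons, called at an adjusted p under 0.05. DESeq2 1.42.0 was an alternative, as were RLE factors, library totals, other filters, the 6 libraries of a comparison, a replicate block, thinned counts, each library left out, and a GC and length trend removed (exon GC from the mm9 genome, splines with 5 df). In simulated counts for HFD against LFD, 190 of 200 genes changed 1.5-fold were called among 13214 tested, and 9 other genes were called. Their median log2 change, 0.584 in size, was larger than that of any member with EC359. Smaller changes were not simulated. With 3 libraries against 3, an exact permutation test cannot give a two-sided p under 0.1. The series' design text names 9 tumors, 3 for each group, while the sample labels give a replicate number alone. The p-values measure the spread between these libraries (common biological coefficient of variation 3.63%), which may be partly technical.

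The members, role groups, and lists of pathway and marker genes were chosen with earlier results of these data known. Values in every library are given for Mki67, Top2a, Cdk1, Ccnb1, and Ccna2, for the member of each role group with the highest CPM per kb or the largest change with EC359, and for Kif18a, chosen after its values were seen. The 3 genes of highest CPM are named for each pathway list, and others in them after their values were seen. Ska2, Ska3, Adgre1, Ly6g, Trac, and Flg were listed and not found by symbol. Start regions and motifs are from RefSeq, build GRCm38.p6, in which no gene coordinates were mixed with mm9. Same-numbered libraries of different groups did not deviate together (correlations -0.03 to 0.017). The numbers thus gave no sign of pairing, which does not exclude it.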

Additional observations from a re-analysis of the deposited data

How the results depend on the processing

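The counts of mitosis genes called lower with EC359 against HFD were 34 to 40 under DESeq2, RLE factors, library totals, both other filters, the 6 libraries alone, the replicate block, and thinned counts. Removal of the GC and length trend gave 43. Leaving out 1 library gave 32 to 40, with a median log2 fold change of -0.307 to -0.261, and 0 higher in each case. For HFD against LFD, leaving out 1 library gave 22 to 24 higher, 6 to 7 lower, and a median of 0.139 (without LFD replicate 1) to 0.224. For HFD + EC359 against LFD it gave 11 to 14 higher, 20 to 24 lower, and a median of -0.16 to -0.109, and library totals gave a median of -0.050. With the GC and length trend removed, HFD against LFD gave 13 higher, 11 lower, and a median of 0.052, with or without the block, and HFD + EC359 against LFD gave 2 higher (3 with the block) and a median of -0.262 (-0.263 with the block). A fold change over 2 with an adjusted p under 0.01 left 1 higher and 0 lower with HFD, 0 lower with EC359 against HFD, and 0 higher and 0 lower with EC359 against LFD. The causes were not tested.

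With the replicate number as a block, 24 members were higher and 7 lower with HFD (median 0.191), 0 higher and 38 lower with EC359 against HFD (-0.299), and 14 higher and 22 lower with EC359 against LFD (-0.125). The libraries showed no sign of pairing by number.

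Single genes changed sign as follows, first with the GC and length trend removed and then with the block added. With HFD against LFD they were Foxm1 (0.002 and 0.003), Plk1 (0.120 and 0.120), Incenp (0.052 and 0.052), Kif11 (-0.209 and -0.212), Kif22 (0.068 and 0.069), Ncapd2 (0.002 and 0.001), Top2a (-0.016 and -0.016), and Anln (-0.196 and -0.195). With EC359 against HFD it was Smc4 (-0.105 and -0.104). With EC359 against LFD they were Cdk1 (-0.010 and -0.010), Bub1 (-0.046 and -0.044), Kif15 (-0.220 and -0.221), Kif20a (-0.088 and -0.091), Kif20b (-0.043 and -0.040), Kif23 (-0.049 and -0.042), Cenpe (-0.108 and -0.106), Cenpf (-0.220 and -0.218), Ncapg (-0.233 and -0.232), Smc2 (-0.305 and -0.303), Smc4 (-0.088 and -0.090), Top2a (-0.287 and -0.287), and Ect2 (-0.251 and -0.249).

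Other sign changes were of values not called. Library totals gave Kif22 0.005 and Kif4 0.032 with HFD, and Ccna2 0.041, Ccnb2 0.031, Ncaph 0.010, and Prc1 0.039 with EC359 against LFD. Thinned counts gave Kif4 0.055 with HFD and Kif18a 0.034 with EC359 against HFD. Leaving out a library gave ranges that cross 0. With HFD they were -0.072 to 0.007 for Kif22 (above 0 without LFD replicate 1) and -0.062 to 0.037 for Kif4 (0.037 without LFD replicate 3 and 0.035 without HFD replicate 1). With EC359 against HFD they were -0.21 to 0.015 for Kif18a (HFD + EC359 replicate 1), -0.006 to 0.036 for Smc4 (below 0 without HFD replicate 2), and -0.152 to 0.020 for Hmmr (HFD replicate 3). With EC359 against LFD they were -0.083 to 0.027 for Ccna2 and -0.114 to 0.031 for Prc1 (LFD replicate 2), -0.129 to 0.116 for Ccnb2 (LFD replicate 3), -0.042 to 0.048 for Kif20a (below 0 without HFD + EC359 replicate 3), and -0.002 to 0.096 for Top2a (below 0 without LFD replicate 1). Of the calls, leaving out a library ended 4 of 31 with HFD, 6 of 37 with EC359 against HFD, and 6 of 36 with EC359 against LFD.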
